A study of Mus musculus with 6 samples.

Results

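The mouse genome holds 2 small miRNA clusters in which a miR-193 hairpin is followed by a miR-365 hairpin, and 4 mature products of these clusters were followed here, mmu-miR-193a-3p, mmu-miR-193a-5p, mmu-miR-193b-3p and mmu-miR-365-3p, written below without the species prefix. They were taken by name from a table of 1034 mature miRNAs, and all 4 were found. For miR-365-3p, which has 2 identical genomic copies, the row with the higher total was used. The study measured miRNAs in nephron progenitors from mice of the CD1 strain, either embryos at E14.5 or newborns at P0. Each stage had 3 samples, replicates 1, 2 and 3, and each sample pooled the kidneys of 1 litter; values of single libraries are given in that order. The cells were released from the kidney cortex by a short enzyme digestion and captured on beads carrying an antibody to the integrin Itga8. Every sample was of the same strain, and the labels name no treatment or genetic change in either group. The mRNA markers that define nephron progenitors cannot be read from a miRNA table, so the cell label was not checked against them.

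A miRNA is cut from a hairpin precursor, and either arm, named 5p or 3p, can be loaded into an Argonaute protein. The loaded strand then finds target mRNAs mainly through its seed, the bases near its 5′ end, and lowers their translation and stability. miR-193a is known in the kidney as a repressor of Wt1, the transcription factor that nephron progenitors need and that podocytes keep for life. The miR-193b and miR-365 cluster is known from brown fat and muscle cells.

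Both clusters lie on plus strands of build GRCm38, the build that mm10 names. Mir193a (chr11:79711969-79712034) and Mir365-2 (chr11:79726400-79726511) are 14.4 kb apart and overlap no other annotated gene, with the nearest coding gene, Rab11fip4, 13.9 kb from Mir193a. Mir193b (chr16:13449523-13449601) and Mir365-1 (chr16:13453840-13453926) are 4.2 kb apart and sit inside an intron of Gm15738, a non-coding gene on the opposite strand. The RefSeq hairpins are shown to place the arms, with the mature 5p and 3p sequences in capitals.
Mir193a: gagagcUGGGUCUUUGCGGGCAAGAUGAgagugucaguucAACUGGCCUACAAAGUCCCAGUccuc
Mir193b: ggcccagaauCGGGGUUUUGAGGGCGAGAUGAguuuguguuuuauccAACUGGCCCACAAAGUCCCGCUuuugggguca
Mir365-1: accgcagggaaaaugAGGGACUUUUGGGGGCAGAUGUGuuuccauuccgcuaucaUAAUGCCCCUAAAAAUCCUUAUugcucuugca
Mir365-2: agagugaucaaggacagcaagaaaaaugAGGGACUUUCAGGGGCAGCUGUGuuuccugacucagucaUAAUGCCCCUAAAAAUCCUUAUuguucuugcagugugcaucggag

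The 4 mature miRNAs carry 3 different seeds, shown here in capitals (bases 2 to 8) because the seed decides which of them can share targets.
miR-193a-3p: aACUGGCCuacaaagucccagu
miR-193b-3p: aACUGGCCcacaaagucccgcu
miR-193a-5p: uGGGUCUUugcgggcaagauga
miR-365-3p: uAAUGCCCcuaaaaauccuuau
miR-193a-3p and miR-193b-3p share the seed ACUGGCC and differ at 3 of 22 bases, all outside it. Counted from the 5′ end with miR-193a-3p first, these are U9C, A20G and G21C. No other mature miRNA in the RefSeq table has this seed, and none shares that of miR-193a-5p or miR-365-3p. miR-365-3p is poor in G and C (31.8% of its bases), whereas miR-193a-3p has 50.0%, miR-193a-5p 54.5% and miR-193b-3p 59.1%.

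miR-365-3p was the only 1 of the 4 at a moderate level, and in TPM it was lower in nephron progenitors at birth. The deposited values are TPM, transcript counts scaled for length and to a fixed library total, and a level of 116.9 ± 42.6 TPM at E14.5 stood against 19.5 ± 22.5 TPM at P0 (SD, n = 3). It ranked 230th of 1034 names at E14.5 and 302nd at P0. After the median-of-ratios scaling described below, its stage difference did not pass the threshold (limma adjusted p = 0.0841). The miR-193 products were rare, with miR-193a-5p at 7.93 ± 3.27 and 2.18 ± 1.46 TPM, miR-193a-3p at 2.41 ± 1.85 and 0.0849 ± 0.0745 TPM, and miR-193b-3p at 1.309 ± 1.2588 and 0.390 ± 0.344 TPM at E14.5 and P0 respectively (SD, n = 3). Both stages therefore gave the order miR-365-3p, miR-193a-5p and then the 3p arms of miR-193, and at neither stage did the libraries of the first 2 overlap. miR-193a-3p and miR-193b-3p overlapped at both stages, so their order was not resolved.

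**Figure D1:**
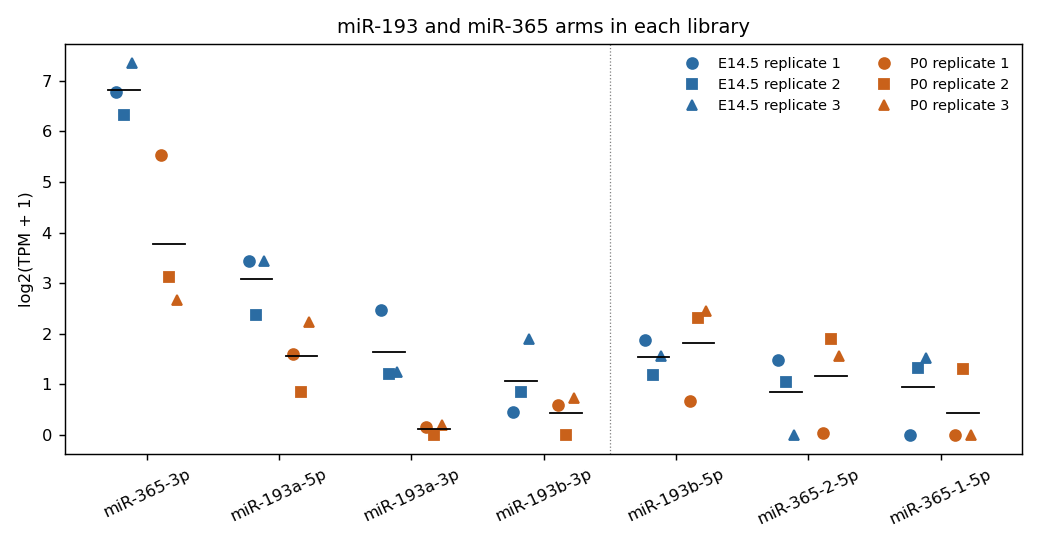
Level of each arm in each library on the log2(TPM + 1) scale, E14.5 in blue and P0 in orange, marker shape giving the replicate and the black bar the stage mean. The 4 products left of the dotted line are the ones chosen by name, and the 3 to the right are the other arms of the same hairpins; P0 replicate 1 lies nearest to E14.5 for miR-365-3p.

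Libraries held 2649506 to 34934526 reads, and the smallest 2, replicates 1 and 3, were both of E14.5. Reads were recovered from TPM as whole multiples of a step per library, and 3 reads of a 22-base miRNA correspond to 0.0863 to 1.14 TPM, so levels near 1 TPM rest on few reads in the smaller libraries. P0 replicate 1 lay farthest from its own stage: its median absolute log2 distance from the mean of the other P0 libraries was 1.09 over the 670 tested miRNAs, against 0.413 to 0.700 for the other 5 libraries measured in the same way. It lay on the E14.5 side of the other P0 libraries for 81.3% of miRNAs, and the other 5 lay toward the opposite stage for 31.9 to 68.5%. TPM also carried a general downward shift, the median log2 difference over all 670 miRNAs being −1.20 (P0 minus E14.5). After median-of-ratios scaling, which sets the typical miRNA equal between libraries, that median was −0.15. The stage difference of each product and other arm is therefore given on both scales. Libraries also differed in how the level depended on G and C content, with slopes of −0.381, −0.0943 and −0.268 log2 units per 10 percentage points in the E14.5 libraries, −0.179 in P0 replicate 1, and 0.454 and 0.467 in P0 replicates 2 and 3.

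The question put to each miRNA was whether its level differed between the stages. Of the 4 products, 3 passed the filter on low values (a mean of 1 TPM) and 2 of these, miR-365-3p and miR-193a-3p, were called lower at P0 in TPM, miR-193a-3p having passed the filter only through the stage in which it was high. In that fit 34.2% of the 670 tested miRNAs were called, 32.8% as lower and 1.34% as higher. After median-of-ratios scaling, where limma called 5.22% of miRNAs lower and 5.67% higher (10.9% in all), none of the 3 was, and of the 3 only miR-365-3p had an unadjusted p under 0.05. miR-365-3p had 109, 78.9 and 163 TPM at E14.5 and 45.5, 7.70 and 5.35 TPM at P0. All P0 libraries were below all E14.5 libraries, with P0 replicate 1 several times above the other P0 libraries. These values came from 288, 1859 and 832 reads at E14.5 and 1581, 171 and 115 reads at P0, so counting error was small beside the spread between litters. The log2 difference was −3.04 (SE 0.75, 95% interval −4.68 to −1.41, limma adjusted p = 0.0104). Among the 670, 53 had a more negative value.

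With median-of-ratios scaling the miR-365-3p levels were 71.2, 53.6 and 93.3 at E14.5 and 49.7, 15.2 and 9.73 at P0. The stages still did not overlap, as was so with P0 the lower for 19.6% of tested miRNAs, but P0 replicate 1 then lay close to E14.5 replicate 2. The log2 difference was −1.80 (SE 0.64, 95% interval −3.22 to −0.38) and did not pass the threshold (limma adjusted p = 0.0841), on a scale where 5.22% of miRNAs were called lower. Without P0 replicate 1 the TPM difference was −3.93 (limma adjusted p = 3.74e-05) in a fit that called 53.4% of miRNAs lower. The scaled difference was then −2.45 (limma adjusted p = 0.00213), with 25.2% called lower. With the dependence on G and C content removed, the TPM difference was −2.18 (limma adjusted p = 0.0156), with 34.5% called lower, and the scaled one −1.001 (limma adjusted p = 0.179), with 5.84% called lower. The authors' deposited table gave −1.73 with a standard error of 0.75 and an adjusted p-value of 0.0931, in a table that called 10.4% of names.

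**Figure D2:**
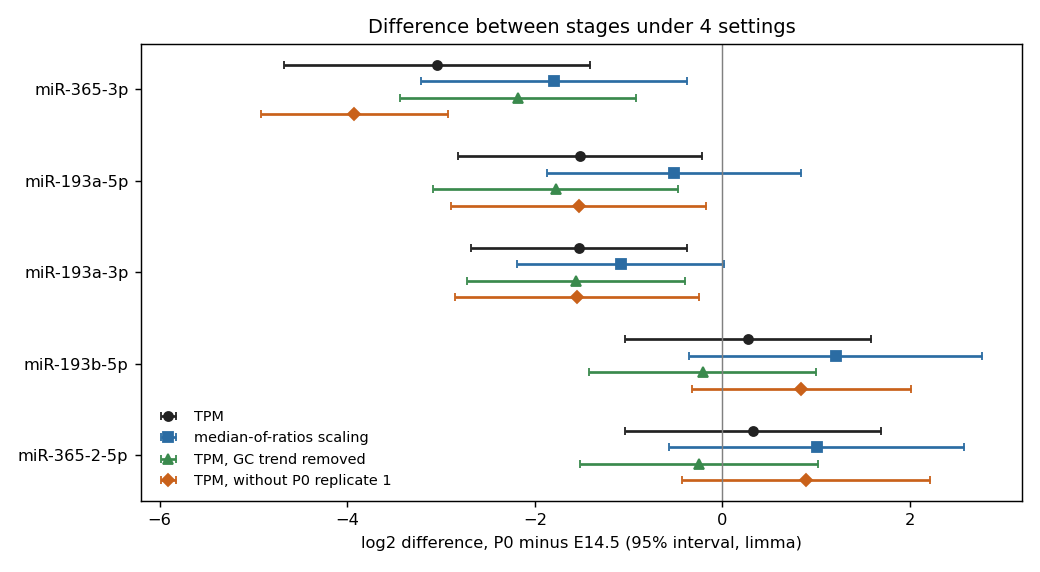
Log2 difference, P0 minus E14.5, with its 95% interval from limma for the 5 arms above the filter on low values, under 4 settings given by colour and marker. miR-365-3p is below 0 in all 4 (from −3.93 to −1.80), whereas the miR-193b-5p and miR-365-2-5p intervals include 0 in each.

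The 2 genomic copies of mir-365 could not be told apart from the 3p arm, whose sequence is the same in both. The row at Mir365-2 and the row at Mir365-1 held 290 and 288 reads in E14.5 replicate 1 and 115 and 115 in P0 replicate 3, and in no library did they differ by more than 2.40%. The 5p arms do differ between the copies, at 3 of 23 bases, but were scarce. miR-365-2-5p had 5, 26 and 0 reads at E14.5 and 1, 64 and 44 at P0. miR-365-1-5p had 0, 37 and 10 reads at E14.5 and 0, 34 and 0 at P0. The 5p arm of Mir365-1 had more reads in E14.5 replicates 2 and 3, and that of Mir365-2 in the other 4 libraries. In 2 of these 4 the margin was small, 5 reads against 0 in E14.5 replicate 1 and 1 against 0 in P0 replicate 1. The log2 ratio of miR-365-1-5p to miR-365-2-5p, with 1 TPM added to each, was 0.10 ± 1.51 for E14.5 against −0.74 ± 0.77 for P0 (SD, n = 3, exact two-sided permutation p = 0.4, adjusted 0.48 over 6 ratios). The difference of −0.84 was −1.64 without E14.5 replicate 1, −0.13 without E14.5 replicate 3, −0.43 without P0 replicate 3 and −2.03 with 0.1 TPM added.

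miR-193a-3p, the arm known for repressing Wt1, was close to the limit of detection at birth. Its E14.5 libraries held 4.54, 1.32 and 1.37 TPM, from 12, 31 and 7 reads, and its P0 libraries 0.115, 0 and 0.140 TPM, from 4, 0 and 3 reads. The stages did not overlap, and 0 reads in P0 replicate 2 allow a level of up to 0.135 TPM by the floor of 3 reads. In TPM the stages also failed to overlap, with P0 the lower, for 46.4% of all tested miRNAs. The log2(TPM + 1) difference was −1.53 (SE 0.53, 95% interval −2.68 to −0.37, limma adjusted p = 0.0434), against a median of −1.20 over all tested miRNAs. Adding 1 TPM to values under 0.2 compresses this difference, and with 0.1 TPM added it was −3.62 (limma adjusted p = 0.0490), against a median of −1.51.

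The call for miR-193a-3p was fragile. After median-of-ratios scaling the difference was −1.08 (95% interval −2.19 to 0.02, limma adjusted p = 0.152), against a median of −0.15, although the levels of 2.97, 0.893 and 0.785 at E14.5 and 0.126, 0 and 0.254 at P0 still did not overlap. Leaving out any 1 library other than P0 replicate 1 ended the call in TPM, the adjusted p running from 0.0532 to 0.147. Without P0 replicate 1 it held (limma adjusted p = 0.0405). The authors' deposited table gave −3.35 with a standard error of 2.33 and an adjusted p-value of 0.333.

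miR-193a-5p, the other arm of that hairpin, was the more abundant arm in each of the 6 libraries. It had 9.84, 4.16 and 9.79 TPM at E14.5, from 26, 98 and 50 reads, and 2.01, 0.810 and 3.72 TPM at P0, from 70, 18 and 80 reads. The P0 libraries were all below the E14.5 libraries, with a narrow gap between P0 replicate 3 and E14.5 replicate 2. The log2(TPM + 1) difference of −1.52 (SE 0.60, 95% interval −2.82 to −0.21) did not pass the threshold (limma adjusted p = 0.0657). It did pass with the dependence on G and C content removed in TPM (−1.78, limma adjusted p = 0.0371), but not with the same correction after scaling (−0.75, limma adjusted p = 0.406). On the median-of-ratios scale P0 replicate 3, at 6.77, was above all E14.5 libraries, and the difference was −0.51 (95% interval −1.87 to 0.84, limma adjusted p = 0.574). It was −0.32 without E14.5 replicate 1, −0.80 without E14.5 replicate 2, −0.20 without P0 replicate 2 and −0.99 without P0 replicate 3. For this arm the authors' deposited table gave 0.09 with a standard error of 1.12.

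miR-193b-3p, with the same seed as miR-193a-3p, was too rare for the filter. It had 0.379, 0.806 and 2.74 TPM at E14.5, from 1, 19 and 14 reads, and 0.518, 0 and 0.652 TPM at P0, from 18, 0 and 14 reads. The stages overlapped. Tested without the filter, its log2(TPM + 1) difference was −0.63 (95% interval −1.61 to 0.34, limma adjusted p = 0.353), in a fit that called 21.2% of 1034 miRNAs. On the median-of-ratios scale, again without the filter, the value was −0.18 (limma adjusted p = 0.825). Its partner arm miR-193b-5p had 2.65, 1.27 and 1.96 TPM at E14.5 and 0.604, 3.96 and 4.47 TPM at P0, so that P0 replicates 2 and 3 were above all E14.5 libraries and P0 replicate 1 was below them.

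The TPM difference for miR-193b-5p was 0.28 (95% interval −1.04 to 1.59, limma adjusted p = 0.724), and −0.21 with the G and C trend removed, so its direction depended on the processing. Median-of-ratios scaling gave 1.21 (limma adjusted p = 0.245). Leaving out P0 replicate 1 brought the scaled value to 2.02 (limma adjusted p = 0.00886), in a fit where 22.8% of miRNAs were called higher. The TPM difference of miR-365-2-5p was 0.33 (limma adjusted p = 0.685), and −0.25 with the G and C trend removed. Its scaled difference was 1.004 (limma adjusted p = 0.337) over all libraries and 1.80 (limma adjusted p = 0.0226) without P0 replicate 1. Its mean was 0.953 TPM at E14.5 and 1.58 TPM at P0, so it passed the filter through the stage in which it was high. Of the 3 other arms of these hairpins, none passed the limma threshold over all 6 libraries on either scale, the smallest unadjusted p being 0.116, for the scaled miR-193b-5p. miR-365-1-5p, below the filter, had a TPM difference of −0.51 without it (limma adjusted p = 0.468) and a scaled one of −0.034 (limma adjusted p = 0.968).

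**Figure D3:**
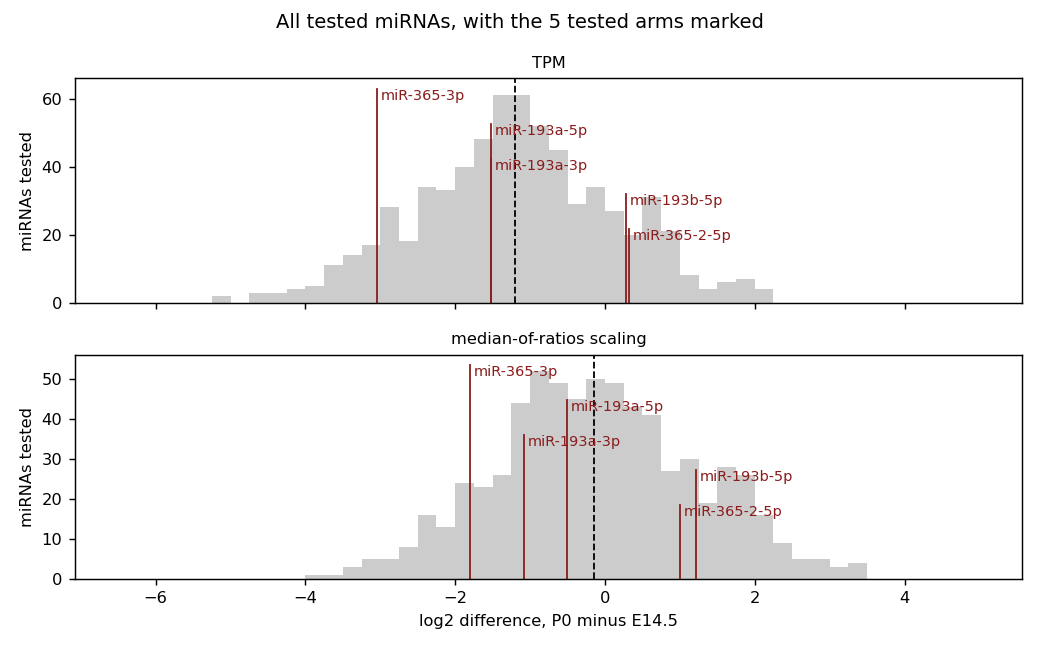
Histograms of the log2 difference, P0 minus E14.5, over the 670 tested miRNAs in TPM (top) and after median-of-ratios scaling (bottom), the dashed line giving the median and red lines the 5 tested arms. miR-365-3p lies in the lower tail on both scales, while miR-193a-5p and miR-193a-3p lie near the TPM median of −1.20.

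The share of an arm in a hairpin's reads, taken inside a library, does not depend on how libraries are scaled. The arms of miR-193a hold 50.0% (3p) and 54.5% (5p) G and C. Of the reads of the Mir193a hairpin, the 3p arm took 31.6%, 24.0% and 12.3% at E14.5 against 5.41%, 0% and 3.61% at P0. Every P0 share was below every E14.5 share, with means of 22.6% ± 9.73 and 3.01% ± 2.75 (SD, n = 3). The 95% Wilson intervals, which cover counting error only, were 6.08 to 23.3% for E14.5 replicate 3 and 2.12 to 13.1% for P0 replicate 1, so the nearest libraries of the stages could not be told apart at this depth. In P0 replicate 2 the hairpin had 18 reads in all, and its interval reached 17.6%.

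The test of this arm ratio depended on the value added to TPM. As log2((TPM + 1)/(TPM + 1)), the miR-193a-3p to miR-193a-5p ratio was −1.44 ± 0.66 for E14.5 against −1.45 ± 0.60 for P0 (SD, n = 3, exact two-sided permutation p = 1), because 1 TPM exceeds every P0 value of the 3p arm. With 0.1 TPM added, the ratio differed by −1.68 between stages with an exact two-sided p = 0.1, the smallest that 3 libraries against 3 allow. Neither setting could reach 0.05. The added value also makes such ratios depend on how libraries are scaled, and they were not computed after median-of-ratios scaling.

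The Mir193b hairpin gave no clear shift between its arms. Its 3p share was 12.5%, 38.8% and 58.3% at E14.5 and 46.2%, 0% and 12.7% at P0. The stages overlapped, and E14.5 replicate 1 had only 8 reads from this hairpin. Both arms of miR-193b have the same G and C content, 59.1%. The log2 ratio of the arms was −0.47 ± 0.88 for E14.5 against −1.37 ± 1.16 for P0 (SD, n = 3, exact two-sided permutation p = 0.3, adjusted 0.48). Leaving out 1 library moved the difference of −0.91 to −0.50 without E14.5 replicate 3, −0.44 without P0 replicate 2, −1.55 without P0 replicate 1 and −1.38 without E14.5 replicate 1, and adding 0.1 TPM gave −1.83.

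For mir-365 the 3p share set the reads of the miR-365-3p row used against both 5p arms together. It was 98.3%, 96.7% and 98.8% at E14.5 and 99.9%, 63.6% and 72.3% at P0. P0 replicates 2 and 3 thus stood below the other 4 libraries, with Wilson intervals of 57.7 to 69.1% and 64.9 to 78.7%, whereas P0 replicate 1 was above all E14.5 libraries. This share was computed after the values were seen and was not tested. Whether the rows of miR-365-3p at the 2 copies hold the same reads was not established. If they hold different reads, the shares given here are too low. The 5p arms hold more G and C (56.5% and 60.9%) than the 3p arm (31.8%), and P0 replicates 2 and 3 are the libraries with a positive slope on G and C content. The part of that slope in the arm shares was not tested.

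**Figure D4:**
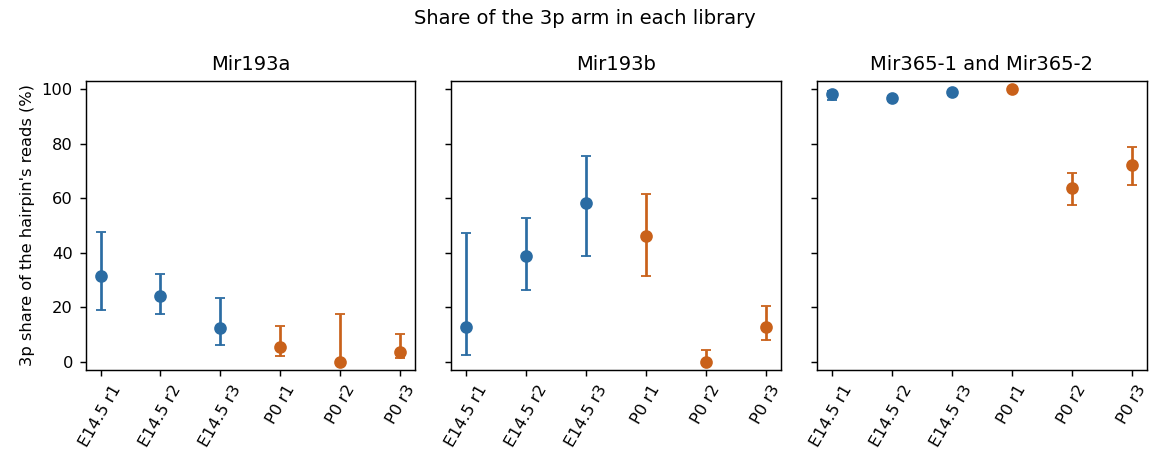
Percentage of a hairpin's reads that came from the 3p arm, by library, with 95% Wilson intervals (counting error only), E14.5 in blue and P0 in orange. The panels are Mir193a, Mir193b and mir-365, the last setting the miR-365-3p row used against the 5p arms of both copies. The Mir193a shares are 12.3 to 31.6% at E14.5 and 0 to 5.41% at P0. The mir-365 share, counted with that row, is below 75% in P0 replicates 2 and 3 only.

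Products of different hairpins were compared in the same way; since miR-365-3p is the same from both of its copies, its ratios to the miR-193 arms do not separate the 2 clusters. The log2 ratio of miR-193b-3p to miR-365-3p was −6.32, −5.47 and −5.45 at E14.5 and −4.94, −3.12 and −1.94 at P0, without overlap, a difference of 2.41 (exact two-sided permutation p = 0.1, adjusted 0.48). With 0.1 TPM added in place of 1 TPM, the difference was 1.59 and the stages overlapped (exact two-sided permutation p = 0.4). That of miR-193a-3p to miR-365-3p was −5.18 ± 0.90 for E14.5 against −3.66 ± 1.52 for P0 (SD, n = 3, exact two-sided permutation p = 0.3, adjusted 0.48), and its direction turned with 0.1 TPM added, to −0.46. This difference of 1.52 was 2.38 without P0 replicate 1 and 0.93 without P0 replicate 3. The log2 ratio of miR-193a-3p to miR-193b-3p, the 2 carriers of the seed ACUGGCC, was 0.57 ± 1.35 for E14.5 against −0.33 ± 0.29 for P0 (SD, n = 3, exact two-sided permutation p = 0.4, adjusted 0.48). That difference of −0.90 was −0.18 without E14.5 replicate 1, −1.51 without E14.5 replicate 3 and −2.05 with 0.1 TPM added. In P0 replicate 2 both carriers had 0 reads, so the ratio of 0 there came from the added value alone. None of the 6 ratios passed the threshold, and none could, since 3 libraries against 3 allow no exact p under 0.1.

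Because miR-193a is known for its action on Wt1, seed matches were sought in Wt1 transcripts of GENCODE M21. The longest coding transcript, of 3090 bases, holds the motif GGCCAGT once, the complement of bases 2 to 8 of miR-193a-3p and miR-193b-3p; only the transcript strand was searched. It lies in the coding part of exon 1, at chr2:105127292-105127298 on the plus strand, and is present in 7 of 7 coding Wt1 transcripts. The motif AAGACCC, for miR-193a-5p, also occurs once, in the coding part of exon 9 at chr2:105169985-105169991, again in 7 of 7. The motif GGGCATT, for miR-365-3p, has 0 matches in that transcript. The surrounding 30 bases are shown with the match in capitals.
Wt1 exon 1, miR-193a-3p and miR-193b-3p: accttgcacttctcgGGCCAGTtcaccggt
Wt1 exon 9, miR-193a-5p: cggtccgaccatctgAAGACCCacaccagg
Such matches are common. Among the longest coding transcripts of 2542 genes within 10% of this length, 22.1% hold GGCCAGT, 22.4% hold AAGACCC and 14.48% hold GGGCATT. The 2 matches do not overlap, and a match says only that these letters are present. Wt1 itself was not measured here.

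A list of 10 other miRNAs described in podocytes or as acting on Wt1 gives the setting of these changes. In TPM 8 of the 10 had a negative and 2 a positive difference, and 3 fell, where 32.8% of all miRNAs were called lower (limma adjusted p of 0.0354 for miR-15a-5p, 0.0307 for miR-30b-5p and 0.0165 for miR-30c-5p), with a list median of −1.04 against −1.20 for all 670. After median-of-ratios scaling 3 were negative and 7 positive, and 2 rose where 5.67% of all miRNAs were called higher, miR-16-5p by 1.71 (limma adjusted p = 0.0468) and miR-30d-5p by 1.87 (limma adjusted p = 0.0317). The list median was then 0.28 against −0.15. None of the 5 was called on both scales: miR-15a-5p, miR-30b-5p and miR-30c-5p had limma adjusted p of 0.316, 0.183 and 0.138 after scaling, and miR-16-5p and miR-30d-5p 0.389 and 0.340 in TPM. miR-365-3p, at −3.04 and −1.80, had a more negative difference than each of the 10 on both scales; the contrast with them was not tested.

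The miRNAs whose levels ran most like each product over the 6 libraries were found by Pearson correlation of log2(TPM + 1) among 431 miRNAs of at least 10 TPM, as a description. For miR-365-3p these were miR-669f-3p, miR-301a-5p and miR-496a-3p, with r of 0.995, 0.994 and 0.994. For miR-193a-5p they were miR-205-5p (0.984), miR-653-5p (0.967) and miR-9-5p (0.963). For miR-193a-3p they were miR-30c-2-3p (0.957), miR-142a-3p (0.956) and miR-126a-3p (0.952), the last 2 being markers of leukocytes and of endothelium. For miR-193b-3p the highest was miR-206-3p (0.919). The 6 points share the stage difference and the TPM scaling with its downward shift, and likeness was not computed on the other scale.

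Marker miRNAs of other cell types were summed on both scales. The 2 endothelial markers are the arms of a single hairpin, miR-126a, with scaled differences of −0.66 (3p, not called) and −2.90 (5p, called). In TPM, the 2 endothelial markers summed to 26608 to 44921 at E14.5 and 5634 to 8158 at P0, and the 5 epithelial markers to 4122 to 23183 and 500.2 to 1542. After median-of-ratios scaling the stages still did not overlap for these lists, with 16421 to 29355 and 8926 to 14750 for the endothelial markers and 2800 to 15150 and 990 to 1687 for the epithelial ones. On that scale, where 5.22% of all miRNAs were called lower and 5.67% higher, limma called 1 of the 2 endothelial and 3 of the 5 epithelial markers lower, and 1 of the 5 leukocyte markers higher. In TPM, where 32.8% were called lower, it called 2 of 2 endothelial, 5 of 5 epithelial, 6 of 8 stromal, 1 of 5 erythroid and 1 of 5 leukocyte markers lower. The other lists did not overlap in TPM but overlapped after scaling. In TPM, the 8 stromal markers summed to 84590 to 101836 at E14.5 and 33449 to 46030 at P0, the 5 erythroid to 242 to 417 and 128 to 194, and the 5 leukocyte markers to 797 to 1540 and 507 to 751. After scaling the stromal sums were 57456 to 61573 and 50364 to 82502, the erythroid 165 to 273 and 140 to 380, and the leukocyte 541 to 1007 and 822 to 1002. All listed markers were in the table, and 1 erythroid marker was at 0 in at least 1 library. The part of the endothelial and epithelial markers in the lower values of miR-365-3p and miR-193a-3p was not tested. In bulk samples, fewer cells of a type and less RNA per cell cannot be told apart.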

How the data were processed

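The authors deposited 1 table with a TPM value per mature miRNA and sample. The submitters' processing notes name featureCounts, DESeq2 1.26.0 and mm10, with no role; the library kit was QIAseq miRNA according to the labels, and trimming, the aligner and any use of molecular tags are not given in the sources used here. The table also holds the authors' baseMean (a normalised signal), log2 fold change with its standard error, test statistic (a score), p-value and adjusted p-value, per the file headers. Each TPM value times the end minus the start is a whole multiple of a step per library (100% of values, tolerance 0.0001 reads), which gave the reads. Median-of-ratios size factors, taken over 589 rows without a 0, turned these reads into the deposited baseMean, to within a relative difference of 4.66e-15. The direction of the authors' log2 fold change is not stated and was read from the values as P0 over E14.5.

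Where a name had several rows (52 names), the one with the highest total TPM was kept. Stages were compared with limma 3.58.1 (R 4.3.3; mean-variance trend) on log2(TPM + 1) after removing miRNAs averaging under 1 TPM, with Benjamini-Hochberg adjustment over all of them and a threshold of 0.05. The G and C trend was each library's linear slope, removed for the 85.6% of names with a RefSeq sequence (GRCm38.p6), of which 582 passed the filter. All 8 rows of these hairpins matched RefSeq positions. Ratios used exact permutation tests (scipy 1.17.1). Intervals and floors cover counting error only. Named miRNAs are the 4 products, the 3 other arms, the list of 10 and the 3 most alike per product. Products, lists and tests were chosen with earlier results of these data known. The fit was also run on simulated reads with planted changes. Those had no general shift, no G and C slope and no outlying library, so they say nothing about these features. Alternatives were other scalings, filters and added values, limma-voom on reads, rows of a name summed, dropping the most abundant miRNA, leaving out each library, and the replicate block. Nothing says that replicate numbers pair the litters, and p-values measure the spread between litter pools.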

Additional observations from a re-analysis of the deposited data

How the results depend on the processing

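The lower values of miR-365-3p, miR-193a-3p and miR-193a-5p at P0 kept their direction in each alternative that gave a value. The authors' deposited table gave miR-193a-5p the other sign, at 0.09 with a standard error of 1.12. The miR-365-3p call was lost with upper-quartile scaling (−1.93), limma-voom with median-of-ratios factors (−1.75), and median-of-ratios scaling alone, without the filter or with the replicate block (−1.80 each) or with the G and C trend removed (−1.0). Leaving out 1 library gave −3.93 to −2.49 in TPM, the call being lost without E14.5 replicate 3 (−2.78, limma adjusted p = 0.0707), and −2.45 to −1.33 after scaling (−1.79, −2.0 and −1.60 without E14.5 replicates 1 to 3, −2.45, −1.62 and −1.33 without P0 replicates 1 to 3), where it was called only without P0 replicate 1. The miR-193a-3p call was lost with median-of-ratios scaling alone, without the filter or with the block (−1.08 each), with the G and C trend also removed (−1.12), with upper-quartile scaling (−1.12), and with limma-voom on library totals (−4.39) or median-of-ratios factors (−3.14). Leaving out 1 library gave −1.74 to −1.11 in TPM and −1.29 to −0.713 after scaling (−0.713, −1.25 and −1.29 without E14.5 replicates 1 to 3, −1.09, −1.0 and −1.16 without P0 replicates 1 to 3). miR-193a-5p was called with the G and C trend removed, with and without the block (−1.78). The cause was not tested.

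Directions turned for miR-193b-5p with the G and C trend removed, with or without the block (−0.21), and without P0 replicate 3 (range over libraries −0.043 to 0.84). They turned for miR-365-2-5p with limma-voom on library totals (−0.50), with the G and C trend removed, with or without the block (−0.25), and without E14.5 replicate 3 or P0 replicate 2 (−0.0937 and −0.041, range to 0.89). The ratio of miR-193a-3p to miR-193a-5p ranged from −0.39 to 0.29 on leaving out 1 library and was −1.68 with 0.1 TPM added, and that of miR-193a-3p to miR-365-3p turned to −0.46 with 0.1 TPM added. miR-365-3p had 1 match in Wt1 for bases 2 to 7 against 0 for bases 2 to 8.

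Against 229 calls in TPM (9 higher, 220 lower), 73 were made with median-of-ratios scaling (38 higher, 35 lower), 67 with upper-quartile scaling (27 higher, 40 lower), 28 when limma-voom used median-of-ratios factors, and 79 with median-of-ratios scaling and the block. With that scaling, having no filter gave 51 and removing the G and C trend 68, both settings chosen after seeing the data. Leaving out 1 library gave 66 to 410 in TPM and 0 to 322 after scaling, the highest without P0 replicate 1 on both scales and the lowest in TPM without E14.5 replicate 3. The scaled limma count was 0 without E14.5 replicates 1 or 3 or P0 replicate 2, with at least 137 miRNAs at an unadjusted p under 0.05. Deviations of same-numbered samples correlated at 0.193, 0.183 and 0.0423, and those of differently numbered samples at −0.182 to 0.0770. The block was left out of the main fit because nothing says that the numbers pair the litters, and these values do not settle it. With the replicate block in TPM, 247 were called and no call of the 5 tested arms changed (miR-365-3p −3.04, limma adjusted p = 0.0082). Depth limits the miR-193 arms, whose reads per library ranged from 0 to 98.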
